A study of Rattus norvegicus with 6 samples.

Results

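The presynaptic active zone is the patch of plasma membrane at which vesicles dock, become primed and fuse when calcium enters, and a meshwork of very large proteins holds the fusion machinery there next to calcium channels. Pancreatic β-cells have no synapses but use many of the same proteins to place insulin granules near the membrane and near calcium channels. The 10 genes described here encode that meshwork and its closest partners: Bassoon (Bsn) and Piccolo (Pclo), the giant scaffolds; the RIM proteins (Rims1, Rims2), which bind Rab3 on vesicles; the RIM-binding protein Rimbp2, which ties RIM to calcium channels; the ELKS/CAST proteins (Erc1, Erc2), which organise the site; the Munc13 proteins (Unc13a, Unc13b), which prime vesicles by opening syntaxin; and Noc2 (Rph3al), a Rab effector of secretory granules related to rabphilin. They were taken by symbol from the gene tables, which held 1 row for each of the 10 among 32900 features, and all 10 averaged 5 or more normalized counts over the lines, the level required for testing.

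Total RNA, depleted of rRNA, was sequenced from 3 control and 3 PWS lines of INS-1(832/13)::mCherry, a rat insulinoma β-cell line that also carries human insulin and mouse Ins2-mCherry transgenes, all grown in 7.5 mM glucose with no treatment. In the control lines (5-9, 2 and 16) a large deletion removes the Prader-Willi syndrome (PWS) imprinted domain from the silent maternal allele, and in the PWS lines (3, 19-1 and 19-4) it is removed from both alleles. Each line is a clone with 1 library, every other line was isolated from line 5-9, and 19-1 and 19-4 are subclones of 1 PWS line, so p-values measure the spread among these 6 cultures. Normalized counts are read counts divided by a size factor for each library, with 32119377 to 36084261 counted reads in control lines and 26016478 (line 19-1) to 33888835 in PWS lines. As a check of the labels, Mkrn3, a gene of the deleted domain, had 0 reads in every PWS line and between 77.9 and 89.0 normalized counts in control lines, and Snurf, another, had 2, 0 and 4 reads in PWS lines 3, 19-1 and 19-4 and at least 3442 in each control line.

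The mRNAs of 4 of the 10 genes, Bsn, Pclo, Rimbp2 and Rph3al, were higher in each PWS line than in each control line, by 42.7% (Pclo) to 55.6% (Bsn) on average, while the 6 genes for RIM, ELKS/CAST and Munc13 proteins overlapped between the groups. Among all 15579 tested genes 8.43% were likewise higher in every PWS line and 9.01% lower in every PWS line, and none of the 10 was of the latter kind; this measure of overlap was chosen after seeing the data. None of the 10 passed an adjusted p of 0.05 in limma or in edgeR's quasi-likelihood test, whereas DESeq2 on the recovered reads called the same 4. The 4 without overlap had an unadjusted p under 0.05 in limma, where 6% of all tested genes did so in that direction and 5.35% in the other, and also in edgeR (6.14% and 5.24%). After adjustment limma called 0.00642% of the tested genes higher and 0.25% lower, edgeR 0.00642% higher and 0.199% lower, and DESeq2 0.68% higher and 0.783% lower. These 4 genes were singled out by the study from these same libraries, and the 10 were chosen with that known, so their direction is a description of the libraries and not independent evidence. The study also measured active zone mRNAs by RT-ddPCR in separate cultures of these lines, and those measurements were not analysed here, so the values below describe these libraries and should not be read as differences that recur in other cultures or by that method. In RNA from whole cultures, more cells with a transcript and more transcript per cell cannot be told apart.

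**Figure D1:**
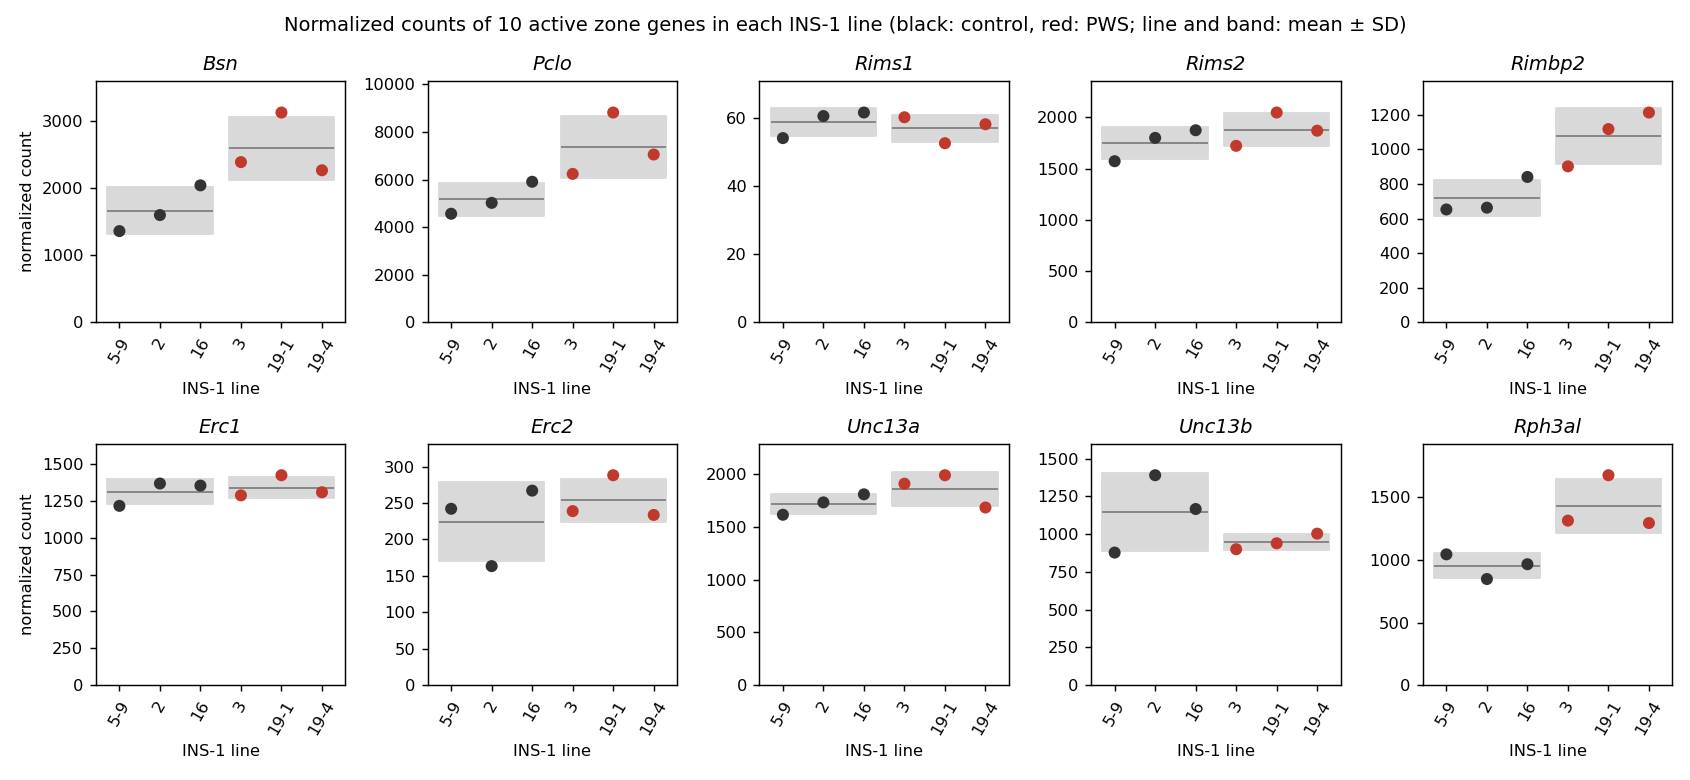
Normalized counts (y axis, from 0) of each of the 10 genes in each INS-1 line (x axis), with control lines in black and PWS lines in red, and the mean ± SD of each group of 3 as a line and band. For Bsn, Pclo, Rimbp2 and Rph3al all red points lie above all black points, and for the other 6 genes the groups overlap.

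The promoters of Bsn, Pclo and Rph3al are shown because these are the genes without overlap for which a RefSeq entry was matched (assembly GRCr8). For 8 of the 10 genes, with 9 entries in all, the table held 250 bases before and 50 bases after a transcript start; Rims2 and Rimbp2 had none. Capitals mark the 10-base NRF1-type palindrome (only in Bsn) and GC boxes (GGGCGG, on either strand), and each sequence reads 5′ to 3′ on the strand of its gene, the minus strand in all 3. Bsn lies at chr8:117754363-117754662, Pclo at chr4:21005062-21005361 and Rph3al at chr10:61300096-61300395. The Rph3al start used lies 31.4 kb inside the annotated gene region, so other starts of that gene are not shown.
Bsn: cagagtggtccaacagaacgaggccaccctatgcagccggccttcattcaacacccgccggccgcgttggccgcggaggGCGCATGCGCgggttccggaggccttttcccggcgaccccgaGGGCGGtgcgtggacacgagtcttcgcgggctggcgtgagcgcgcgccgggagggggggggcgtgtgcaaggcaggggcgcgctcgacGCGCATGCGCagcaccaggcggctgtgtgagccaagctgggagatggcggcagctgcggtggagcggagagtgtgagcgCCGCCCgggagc
Pclo: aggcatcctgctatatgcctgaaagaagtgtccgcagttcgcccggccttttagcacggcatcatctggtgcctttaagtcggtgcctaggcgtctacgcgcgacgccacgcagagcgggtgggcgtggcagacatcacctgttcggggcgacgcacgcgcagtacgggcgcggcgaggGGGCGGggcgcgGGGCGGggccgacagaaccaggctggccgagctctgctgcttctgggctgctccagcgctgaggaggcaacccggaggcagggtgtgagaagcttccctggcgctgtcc
Rph3al: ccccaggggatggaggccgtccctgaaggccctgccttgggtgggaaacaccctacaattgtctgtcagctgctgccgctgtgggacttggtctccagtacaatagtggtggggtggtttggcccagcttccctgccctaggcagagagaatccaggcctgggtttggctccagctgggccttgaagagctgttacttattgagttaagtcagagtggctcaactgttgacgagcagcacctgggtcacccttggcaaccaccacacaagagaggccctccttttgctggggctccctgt

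The promoters of these genes are not alike in sequence. Those of Bsn and Pclo are rich in CpG, with 39 and 31 CpG dinucleotides, against a median of 7 over 33469 promoters of the same length, and that of Rph3al holds 3. Bsn holds 2 copies of the NRF1-type palindrome, which 0.852% of all promoters hold at least once, and none of the other 8 entries holds it. A GC box is in 8 of the 9 entries, all but Rph3al, and in 33.1% of all promoters. None of the 9 entries holds TATAAA (14.2% of all promoters), the cAMP-response element TGACGTCA (1.83%) or the E-box CACGTG (6.42%), and CCAAT, searched on both strands like the others, is in the Erc2 entry and in 1 of the 2 Unc13b entries (37.5% of all promoters). These matches describe the letters in the window, and whether a factor binds was not measured.

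Bsn (ENSRNOG00000030714) encodes Bassoon, one of the largest proteins of the presynaptic meshwork. Its normalized counts were 1363, 1603 and 2046 in control lines 5-9, 2 and 16, and 2393, 3133 and 2271 in PWS lines 3, 19-1 and 19-4. The lowest PWS line (19-4) lay 1.11-fold above the highest control line (16; 95% exact binomial interval 1.05 to 1.18, for counting error only). The control mean was 1671 ± 346 (SD, n = 3) and the PWS mean 2599 ± 466 (SD, n = 3). The log2 fold change was 0.64 (standard error 0.17, 95% interval 0.26 to 1.02; limma, adjusted p = 0.277). In DESeq2 it was 0.64 with an adjusted p of 0.0169.

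Pclo (ENSRNOG00000005726) encodes Piccolo, the paralogue of Bassoon, which in β-cells also binds RIM2 and a cAMP sensor. Control lines 5-9, 2 and 16 had 4566, 5022 and 5909 normalized counts, and PWS lines 3, 19-1 and 19-4 had 6240, 8818 and 7053. The order of the lines differed from that of Bsn only in that 19-4 lay above line 3. Between PWS line 3 and control line 16 the ratio was 1.06 (95% exact binomial interval 1.02 to 1.09), the narrowest gap between the groups of the 4 genes. Its log2 fold change was 0.51 (standard error 0.14, 95% interval 0.19 to 0.82; limma, adjusted p = 0.283; DESeq2, adjusted p = 0.0304). Of its reads, 94.7% were also counted under the default counting, which leaves out reads that align to several places or features.

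Rimbp2 (ENSRNOG00000022893) encodes the RIM-binding protein that couples RIM to voltage-gated calcium channels. Control lines 5-9, 2 and 16 had 653, 664 and 841 normalized counts against 902, 1118 and 1214 in PWS lines 3, 19-1 and 19-4. Of the 4 genes, it alone was highest in line 19-4 and not in its sister 19-1. The ratio of the lowest PWS line (3) to the highest control line (16) was 1.07, with an exact binomial interval of 0.974 to 1.18, so at this depth the gap lay within counting error. Its log2 fold change was 0.58 (standard error 0.14, 95% interval 0.26 to 0.90; limma, adjusted p = 0.265; DESeq2, adjusted p = 0.0149).

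Rph3al (ENSRNOG00000061429) encodes Noc2, an effector of Rab3 and Rab27 on secretory granules that is required for regulated insulin secretion. Its normalized counts were 1045, 848 and 966 in control lines 5-9, 2 and 16 and 1315, 1678 and 1296 in PWS lines 3, 19-1 and 19-4. This was the widest gap of the 4 genes, with line 19-4 at 1.24-fold the level of line 5-9 (95% exact binomial interval 1.14 to 1.34). Unlike Bsn, Pclo and Rimbp2, Rph3al was highest among control lines in 5-9 and not in 16. The log2 fold change was 0.58 (standard error 0.12, 95% interval 0.30 to 0.86; limma, adjusted p = 0.240; DESeq2, adjusted p = 0.00468).

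**Figure D2:**
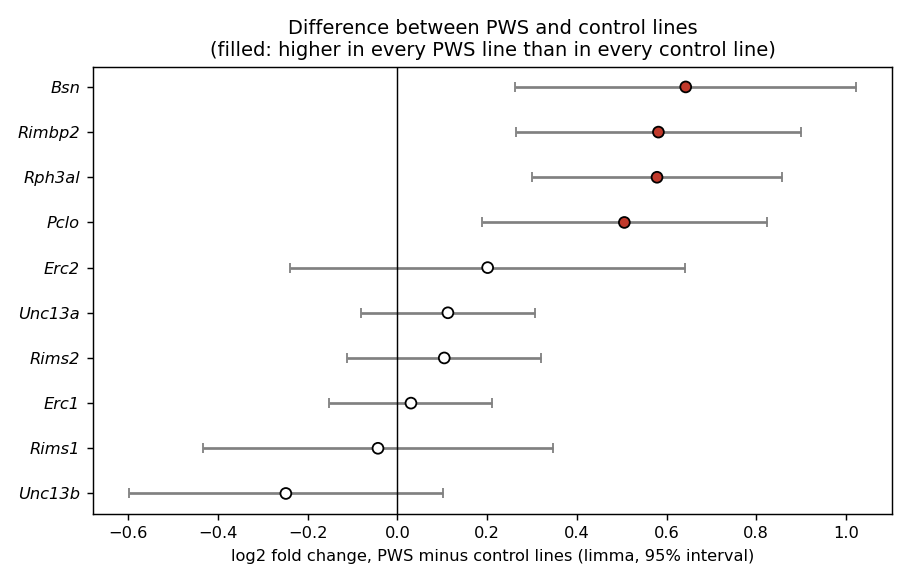
Difference between PWS and control lines for each gene (x axis: log2 fold change, limma, with 95% interval, n = 3 lines in each group), with the genes higher in every PWS line filled. The 4 filled points lie between 0.51 and 0.64 with intervals above 0, before any adjustment for the number of genes, and the intervals of the other 6 include 0.

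For neither RIM gene was a difference between the groups called. Rims2 (ENSRNOG00000004201), the RIM of insulin granules, was at 1573, 1801 and 1875 normalized counts in lines 5-9, 2 and 16 of the control group, and 1723, 2048 and 1871 in PWS lines 3, 19-1 and 19-4. Its groups overlapped, and the log2 difference was 0.10 (SE 0.09, 95% interval -0.11 to 0.32; limma, adjusted p = 0.718), and the upper bound is a 1.25-fold rise. It was 0.03 without control line 5-9, 0.04 without line 19-1 and 0.17 without PWS line 3. Only 79.9% of the Rims2 reads were counted under the default counting, so part of them aligned elsewhere or to an overlapping feature. Rims1 (ENSRNOG00000011000) stood at 54.1, 60.6 and 61.6 normalized counts in lines 5-9, 2 and 16, and at 60.2, 52.6 and 58.2 in lines 3, 19-1 and 19-4, from 44 to 66 reads per library. At that depth counting alone gives a coefficient of variation of 15.1% in the smallest library, and the interval of the log2 fold change, -0.43 to 0.35, includes a change in either direction (limma, adjusted p = 0.95).

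Of the ELKS/CAST genes, Erc1 (ENSRNOG00000009264), which encodes ELKS, had the narrowest interval of all 10. Control lines 5-9, 2 and 16 had 1215, 1367 and 1353 normalized counts, and PWS lines 3, 19-1 and 19-4 had 1286, 1423 and 1307. Between the groups it differed by 0.03 on the log2 scale (standard error 0.08, 95% interval -0.15 to 0.21; limma, adjusted p = 0.921), which leaves room for at most a 1.16-fold rise. Erc2 (ENSRNOG00000015148), which encodes the neuronal relative CAST, stood at 242, 163 and 267 normalized counts in lines 5-9, 2 and 16, and at 239, 288 and 234 in lines 3, 19-1 and 19-4. Control line 2 was lowest and the other 2 control lines lay within the PWS range. The log2 fold change of 0.20 (95% interval -0.24 to 0.64; limma, adjusted p = 0.737) was -0.01 without control line 2.

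Munc13 proteins make docked vesicles ready to fuse. Unc13a (ENSRNOG00000018452), which encodes Munc13-1, was at 1614, 1731 and 1808 normalized counts in lines 5-9, 2 and 16 of the control group and 1908, 1989 and 1683 in PWS lines 3, 19-1 and 19-4. PWS lines 3 and 19-1 lay above every control line, and line 19-4 lay within the control range. The log2 fold change was 0.11 (95% interval -0.08 to 0.31; limma, adjusted p = 0.657), with 0.06 without line 19-1, 0.07 without line 5-9 and 0.18 without line 19-4. Unc13b (ENSRNOG00000008237), which encodes Munc13-2, stood at 878, 1391 and 1167 normalized counts in lines 5-9, 2 and 16, and at 900, 940 and 1004 in lines 3, 19-1 and 19-4. It was the member with the lowest log2 fold change, -0.25 (95% interval -0.60 to 0.10; limma, adjusted p = 0.577), but control line 5-9 lay below every PWS line. Without line 5-9 the value was -0.43 (adjusted p = 0.389), and without control line 2 it was -0.10. Its control lines varied more than its PWS lines, with coefficients of variation of 22.4% and 5.50%.

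Across the 10 genes, line 19-1 had the highest value for 7 and control line 5-9 the lowest for 7, where these lines were highest and lowest for 20.2% and 12.9% of all tested genes. Set against the control mean, the 4 genes without overlap had median log2 deviations of 0.40 in line 3, 0.80 in line 19-1 and 0.46 in line 19-4, and of -0.15, -0.07 and 0.22 in control lines 5-9, 2 and 16. Line 19-1 thus stood above both other PWS lines, its sister included. Bsn was 1.38-fold, Rph3al 1.29-fold and Pclo 1.25-fold as high in 19-1 as in 19-4, and Rimbp2 0.921-fold. For the other 6 genes the medians lay between -0.11 (line 5-9) and 0.17 (line 19-1). Line 19-1 also had the smallest library, and its part in these values was not tested.

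**Figure D3:**
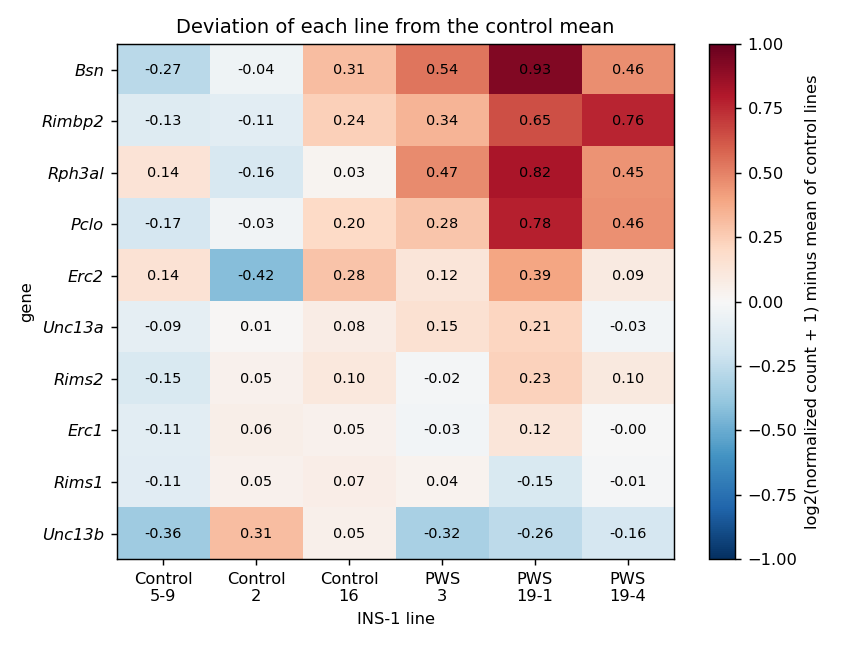
Each cell gives the log2(normalized count + 1) of a gene (rows) in a line (columns) minus the mean of the 3 control lines, with red above and blue below that mean. Bsn, Rimbp2, Rph3al and Pclo are above 0.25 in all 3 PWS lines, with the highest values in line 19-1 except for Rimbp2, and control line 16 is above the control mean for all 10 genes.

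The calls that DESeq2 made depended on which lines were in the fit. With all 6 lines it called Bsn, Pclo, Rimbp2 and Rph3al, among 106 of the 15579 tested genes called higher, and it called them without control line 16 (160 genes higher) and without PWS line 3 (180) too. Without line 19-1 it called none of the 10, with adjusted p-values from 0.0709 (Rph3al) to 0.335 (Pclo), and 27 genes higher in all. Without control line 5-9, and without control line 2, it called Rph3al alone, and 56 genes higher in all in each fit. Without line 19-4 it called Bsn and Rph3al, among 26 genes higher. The number of calls over all genes thus moved with the lines in the fit as well. When the reads of the sister lines 19-1 and 19-4 were summed into 1 sample, which leaves 2 PWS samples, Rph3al had an adjusted p of 0.0108 and the other 3 lay between 0.0884 and 0.188, with 31 genes called higher in all. The log2 fold changes of the 4 genes in these fits ran from 0.36 (Pclo without line 19-1) to 0.81 (Bsn without line 16). That they stayed above 0 followed from the lack of overlap between the groups and is not evidence of stability.

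**Figure D4:**
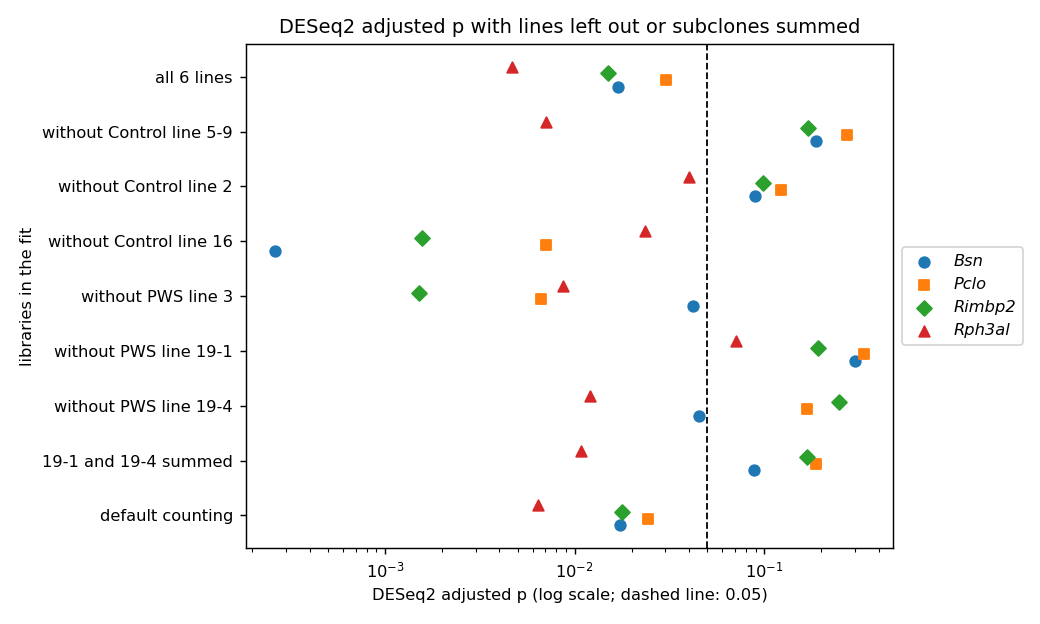
DESeq2 adjusted p (x axis, log scale, dashed line at 0.05) of the 4 genes for the fit to all 6 lines, fits that leave out 1 line, a fit with the sister lines summed and a fit to the default counting. Rph3al passes 0.05 in all of these fits but the one without line 19-1, and Bsn, Pclo and Rimbp2 each pass in some.

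Relative levels of paralogues were compared within each line as the difference of their log2 normalized counts, in which a scaling of the whole library cancels. These are differences in read number and not per length, so only their change between lines is described. The Bsn to Pclo difference was -1.74, -1.65 and -1.53 in control lines 5-9, 2 and 16 and -1.38, -1.49 and -1.63 in PWS lines 3, 19-1 and 19-4, and the groups overlapped (mean difference 0.14, exact permutation test, two-sided, p = 0.2). The Unc13a to Unc13b difference was 0.88, 0.32 and 0.63 in control lines 5-9, 2 and 16. In PWS lines 3, 19-1 and 19-4 it was 1.08, 1.08 and 0.74, a mean difference of 0.36 (exact permutation test, two-sided, p = 0.2). For Rims2 to Rims1 the mean difference between the groups was 0.15 (exact permutation test, p = 0.4), and for Erc1 to Erc2 it was -0.17 (exact permutation test, p = 0.8). With 3 lines against 3 the smallest p this test allows is 0.1. Single lines moved these mean differences: Bsn to Pclo ran from 0.08 (without line 3) to 0.20 (without line 19-4), Unc13a to Unc13b from 0.22 (without line 2) to 0.50 (without line 5-9), and Rims2 to Rims1 from 0.03 (without line 19-1) to 0.25 (without line 3). Erc1 to Erc2 ran from -0.30 (without line 5-9) to 0.07 (without line 2).

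The genes whose values over the 6 lines were most like those of each member on the log2 scale were sought among the 11722 genes that averaged 100 or more normalized counts. Because 6 values that include a group difference are matched against so many genes, high coefficients are common, and 109 genes reached a Pearson r of 0.95 with Bsn and 164 with Pclo. The most alike were Jakmip3 (r = 0.994), Ppp1r13b and Kdm6b for Bsn, Ylpm1 (r = 0.998) and Arid1a for Pclo, Coa5 (r = 0.995) for Rimbp2 and Tsku (r = 0.990) and Terf2ip for Rph3al among genes with a symbol. Scg2, which encodes the granule protein secretogranin II, was the gene most like Erc2 (r = 0.998), and Srcin1 the one most like Rims2 (r = 0.997). Fbrs led for Unc13a (r = 0.997), Tbc1d2b for Erc1 (r = 0.984) and Tgfbr3 for Unc13b (r = 0.986). Fewest genes reached 0.95 with Rims1 (10), the member with the fewest reads.

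Partners of these proteins were counted from lists, and limma called no gene of any list at an adjusted p of 0.05, edgeR none and DESeq2 the 3 named below. The median log2 fold change of the 10 genes was 0.16, against -0.0028 over all tested genes. Among 25 tested active zone partners (liprins, the LAR-type phosphatases that bind them, RIM, RIM-binding and Munc13 relatives, CASK, LIN7, neurexins, GIT proteins and others) the median was 0.0033, and 4 were higher and 3 lower in every PWS line, where 8.43% of all tested genes were higher and 9.01% lower in this sense. Their values ran from -0.35 for Lin7a, an adaptor that binds CASK (adjusted p = 0.316 in limma), to 0.89 for Ppfibp2, a liprin-β (adjusted p = 0.283). Among 18 tested genes for Rab3, Rab27 and their effectors the median was 0.0014, with 1 higher and 0 lower in every PWS line, and the lowest was Sytl4, which encodes granuphilin of insulin granules (log2 fold change -0.54, adjusted p = 0.396 in limma). The highest there was Sytl2 (0.43), with under 10 normalized counts in each line.

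Among 24 tested genes of membrane fusion (SNAREs, SM proteins, complexins and calcium sensors) the median was -0.02, with 3 higher and 2 lower in every PWS line (8.43% and 9.01% of all tested genes). Syt1, a calcium sensor of fusion, had the lowest value, -1.10 (limma, adjusted p = 0.283), and an adjusted p of 0.00769 in DESeq2. Lines 5-9, 2 and 16 of the control group had 337, 662 and 311 normalized counts against 219, 224 and 142 in PWS lines 3, 19-1 and 19-4, and the study had named it from these libraries too. The highest was Stxbp5l, which encodes tomosyn-2 (0.48, limma, adjusted p = 0.295). Among 15 tested calcium channel subunits the median was -0.01 and 3 were higher and 0 lower in every PWS line, with the lowest value in the T-type Cacna1i (-1.20) and the highest in the P/Q-type Cacna1a (0.77; limma, adjusted p = 0.0520). DESeq2 called Cacna1a and the L-type Cacna1d, both higher and both named by the study from these libraries.

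Among 17 tested synaptic vesicle genes the median was 0.07, from Sv2c (-0.96; limma, adjusted p = 0.277) to Syn3 (0.69; adjusted p = 0.332), with 5 higher and 1 lower in every PWS line (8.43% and 9.01% of all tested genes). Among 15 tested scaffolds of the postsynaptic side, which were listed for comparison, the median was 0.10, with 4 higher and 0 lower in every PWS line, against the same shares of all genes. These ran from Dlg2 (-0.81; limma, adjusted p = 0.449) to Shank1 (0.61; adjusted p = 0.277). The median of the 10 genes was 0.08 without line 19-1. That of the 6 genes other than the 4 without overlap was 0.07, a drop fixed in advance because those 4 had the highest values.

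**Figure D5:**
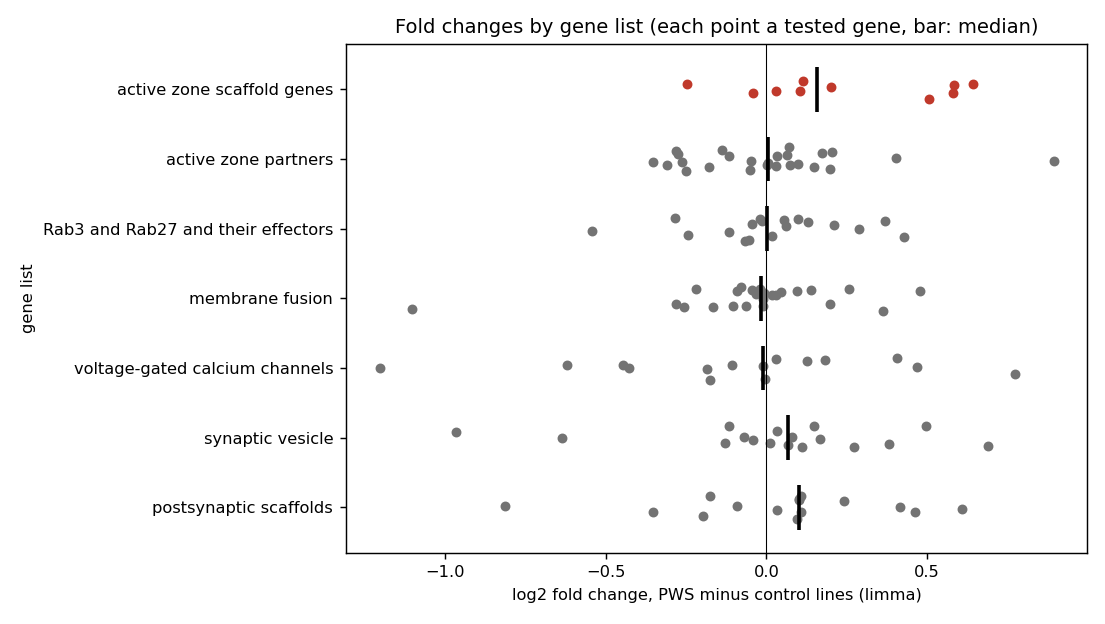
Log2 fold change between PWS and control lines (x axis, limma) of each tested gene in the 10 genes (red) and in 6 lists of related genes (grey), with the median of each as a bar. The medians of the 6 lists lie between -0.02 and 0.10 and that of the 10 genes, 4 of them known from these libraries to be higher, at 0.16, and the grey points reach farther from 0 than the red ones.

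Markers of cell types were summed in each line. The 10 β-cell markers matched, Ins1, Ins2 and Iapp among them, summed to between 489928 and 569097 normalized counts in control lines and between 259112 and 461639 in PWS lines. Of 9 neuronal markers 8 had more than 3 reads in a line, with sums of 4508 to 5542 in control lines and 4905 to 5829 in PWS lines, and Neurod6 had no read. The 5 glial markers, 3 of them above 3 reads, summed to 1021 to 1242 and 1287 to 1690. For fibroblast markers, 1 of 5 above 3 reads and with Dcn and Lum at 0, every control sum was at least 139.6 and every PWS sum at most 132.7. The β-cell, glial and fibroblast sums did not overlap between the groups, and 17.4% of all tested genes likewise did not, counting either direction. Limma called 0 of the 10 tested β-cell markers, 0 of the 2 tested glial markers and 0 of the 1 tested fibroblast marker. The part of these sums in the differences of the 4 genes above was not tested. Alpha-cell markers (3 of 6 above 3 reads) summed to 185 to 218 and 181 to 295, immune markers (2 of 4, Ptprc at 0) to 29.4 to 36.7 and 32.7 to 37.3, and delta-cell, PP-cell and exocrine markers to at most 13.6 in any line, with Sst at 0.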

How the data were processed

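Total RNA-seq of 3 control and 3 PWS INS-1 lines was analysed, with 1 library per line. Per the labels and the study's methods, the authors used FastQC 0.11.5, cutadapt, STAR 2.7.0e (Ensembl v98 rat genome with transgenes and custom features), HTSeq 0.11.2 or RSEM 1.3.1, and DESeq2. The deposited values are a signal: counts divided by DESeq2 size factors, in 1 table each for HTSeq nonunique all (used here), HTSeq nonunique none (the default counting) and RSEM. The deposited fold changes and p-values were not used. Dividing each HTSeq column by what 1 read is worth gave whole reads for 100% of nonzero values (tolerance 0.001 reads), and these reads were used where a count test needs them.

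All 15579 genes averaging 5 or more were compared by limma 3.58.1 (R 4.3.3; eBayes with trend) on log2(normalized count + 1), which understates changes of low genes, with Benjamini-Hochberg adjustment. edgeR 4.0.16 and DESeq2 1.42.0 were run on the recovered reads. Each test was tested on simulated data. The count of genes higher or lower in every PWS line, with its alternatives, and the DESeq2 fits without single lines, with summed sister lines or on the default counting were added after seeing the data. The members, lists and naming rules were chosen with earlier results of these data known: every member, the extremes of each list, and genes from the 3 most like each member, of which some are not reported here. Exact binomial intervals (95%) cover counting error only. Transcript lengths and a genome of the files' build were not used here, so levels are not compared between genes.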

Additional observations from a re-analysis of the deposited data

How the results depend on the processing

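With 3 lines in each group, and 2 of the PWS lines sisters, the design limits what can be called. Bsn, Pclo, Rimbp2 and Rph3al were higher in every PWS line, so leaving out or averaging lines could not turn their sign. Their log2 fold changes were above 0 in all 72 combinations of gene and alternative (other pseudocounts, filters, scaling, tests, counting, clones and lines left out). That count was largely fixed by the lack of overlap and is not evidence of stability. They passed an adjusted p of 0.05 in 4 of the combinations, those by DESeq2, and the adjusted p ran from 0.00468 to 0.582. DESeq2 therefore called 4 of the 10 genes where limma called 0; edgeR and the other alternatives called 0, and at an adjusted p under 0.1 limma called 0 too. The 40 genes called in all became 228 with DESeq2, 9 with a mean of at least 50, 16 with nonunique none counting and 12 with RSEM, and between 33 and 55 with each line left out. The median log2 fold change of the 10 genes ran from 0.08 to 0.25 with each line left out. Values near 0 changed sign with a line left out: Rims1 ran from -0.10 to 0.01 (0.0125 without line 19-1), Erc1 from -0.0237 to 0.0610 (without line 5-9 and without line 2, with -0.0143 without line 19-1), Erc2 from -0.01 to 0.34 (-0.0104 without line 2) and the Erc1 to Erc2 difference from -0.30 to 0.07 (0.0714 without line 2). Members higher in every PWS line numbered 4 under nonunique none, RSEM and TMM scaling too. Replicate numbers name lines and do not pair them: same-numbered lines had correlations of their deviations from the group means of 0.00345, 0.0467 and 0.00513, and only some lines correlated best with their own number. With the replicate number as a block 36 genes were called in all and 0 of the 10.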
